A study of Mus musculus with 36 samples.

Results

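The nuclear genes for transfer RNAs that carry polar or charged amino acids were followed in extracellular vesicles (EVs) and in the fetal mouse neural stem cells (NSCs) that secreted them. Members were the features whose name, after the prefix used in the count files, gives n-T, the letter of serine, threonine, tyrosine, asparagine, glutamine, aspartate, glutamate, lysine, arginine or histidine, and an anticodon in lower case. This rule gave 171 of the 395 nuclear tRNA genes among 40205 features, for 10 amino acids and 23 anticodons. Of the 171 loci, 124 had at least 1 count in some library and 47 had none. All 124 had counts in cells, 114 had counts in EVs, and 10 had counts in cells only.

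The study cultured NSCs of the dorsal telencephalon of C57BL/6J (Ai14) fetuses at gestational day 12.5 as neurospheres, pooled by sex within a pregnancy. The labels number the 3 pregnancies 3, 4 and 5, so that culture 3F is the female culture of pregnancy 3. Each of the 6 cultures was grown in control medium (0 mg/dL) or with ethanol at 120 or 320 mg/dL for 5 days, and an EV library and a cell library were made at each dose, which gave 18 EV and 18 cell libraries. The cultures were pools of littermates kept over several passages, so the 6 cultures of a dose stand for 3 pregnancies, and the 3 doses of a culture are parts of 1 culture. Ribosomal RNA was depleted before sequencing. EV libraries held 959217 to 5509952 counts and cell libraries 26566061 to 55282322. The members together took 373 to 4578 counts in an EV library (median 2110.5) and 22778 to 90107 in a cell library (median 46720). Levels are given in CPM, the counts of a locus relative to the TMM-scaled total of its library, on the usual CPM scale. The neural stem cell markers Nes, Vim and Fabp7 were present in every cell library, while Sox2 was listed at 0 throughout. Microglial markers together reached 0.23 CPM in cells and 8.31 CPM in EVs.

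Transfer RNAs are the adaptors of translation. RNA polymerase III transcribes their genes from promoters within the gene, the ends of the precursor are removed, an intron is spliced out where the gene has one, and the matching aminoacyl-tRNA synthetase loads the amino acid. Most anticodons are encoded by several loci, often with the same sequence, and mature tRNAs carry many modified bases and a tight fold, which a standard reverse transcriptase reads poorly. Cleaved tRNAs are a common part of the small RNA of EVs. The counts used here give reads assigned to a locus and do not separate precursor, mature tRNA and fragment.

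The sequences below are those of loci on which the results turn. They were found in GRCm39, are written 5′ to 3′ as gene sequence on the coding strand, and have the anticodon in capitals. The aspartate locus n-TDgtc16 lies between genes at chr10:91017959-91018030 on the minus strand, and no other gene of the genome scan had its sequence. The scan found 14 Asp-GTC genes, of which the other 13 were identical to each other. n-TDgtc9, at chr11:68931810-68931881 on the plus strand, is one of those 13. Counted from the 5′ end of n-TDgtc9, the substitutions that give n-TDgtc16 are G20T and G56A, so that 97.2% of the 72 bases were the same.
n-TDgtc16: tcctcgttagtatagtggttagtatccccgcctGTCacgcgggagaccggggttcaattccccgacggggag
n-TDgtc9: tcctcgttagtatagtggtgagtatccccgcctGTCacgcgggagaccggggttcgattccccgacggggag

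The asparagine locus n-TNgtt9, at chr2:18591855-18591928 on the minus strand between genes, held most of the Asn-GTT counts and has 9 identical copies in the genome, itself included. The glutamate locus n-TEttc7 (chr7:58049063-58049134, plus strand, 4 identical copies) also lies between genes and is shown because glutamate differed between EV samples.
n-TNgtt9: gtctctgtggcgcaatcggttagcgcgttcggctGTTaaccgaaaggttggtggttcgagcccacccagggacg
n-TEttc7: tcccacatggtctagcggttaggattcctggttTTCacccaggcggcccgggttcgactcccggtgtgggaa

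Arginine and tyrosine supplied the contrasting cases. n-TRccg1 (chr11:106903692-106903764, plus strand, between genes) and n-TRtct2 (chr3:122086597-122086681, minus strand, within an exon of the long non-coding RNA gene Gm17494) each have a sequence found once in the genome, and n-TRtct2 has an intron of 12 bases. n-TYgta8 (chr13:23651246-23651335, plus strand, between genes) has an intron of 17 bases, and its sequence was also found once. The threonine locus n-TTagt6 (chr13:23634792-23634865, plus strand, opposite an exon of the long non-coding RNA gene Gm61415) is shown because the study names it. There it is the hub gene of a module of co-expressed genes in cells that the study found higher in females.
n-TRccg1: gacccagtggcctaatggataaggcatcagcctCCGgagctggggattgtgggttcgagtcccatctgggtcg
n-TRtct2: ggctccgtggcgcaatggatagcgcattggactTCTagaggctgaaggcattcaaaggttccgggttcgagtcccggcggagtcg
n-TYgta8: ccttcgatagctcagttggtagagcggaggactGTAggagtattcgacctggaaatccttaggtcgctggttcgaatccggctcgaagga
n-TTagt6: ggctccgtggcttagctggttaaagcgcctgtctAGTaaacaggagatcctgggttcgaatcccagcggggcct

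The first comparison asked how the tRNA content of EVs differed from that of the cells. Tyrosine, glutamine, lysine, histidine, serine, threonine and asparagine tRNA counts were lower in EVs by CPM. Arginine counts were also lower, a call that did not hold under every scaling, without pregnancy 4 or without the 3F cell library at 320 mg/dL. Aspartate counts were higher, a call that did not hold under every scaling or without pregnancy 5. Glutamate counts did not pass the test. The sum of all members was 446 to 1380 CPM in EVs (median 584) and 711 to 4023 CPM in cells (median 1187). The 3F cell library at 320 mg/dL held 4023 CPM, and the other cell libraries ended at 1869 CPM. Fold changes are log2 values of EVs over cells from edgeR's quasi-likelihood test on all 36 libraries, with terms for sex and dose. They are given with the standard error (SE) and the p-value adjusted over all features tested. That test takes the libraries as independent, although 3 doses share a culture and each EV library has its cell library. With the doses of a culture summed and the culture as a block, arginine was -0.49 (adjusted p = 0.156) and aspartate 0.65 (adjusted p = 0.0693). Neither passed that test, and the sums of the other amino acids listed as lower kept their call.

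Tyrosine differed by the widest margin of the 10 amino acids. Its loci summed to 0.783 to 5.88 CPM in EVs (median 3.56) and to 32.1 to 184 CPM in cells (median 48.7), so every EV library lay below every cell library. The difference was -4.08 on the log2 scale (SE 0.21, adjusted p = 6.35e-20), or 16.9-fold lower in EVs. Glutamine gave 0 to 2.68 CPM in EVs (median 1.45) and 6.09 to 38.9 CPM in cells (median 10.9), a log2 difference of -3.25 (SE 0.26, adjusted p = 3.53e-14). Lysine gave 0.895 to 6.26 CPM in EVs (median 2.60) and 13.1 to 88.7 CPM in cells (median 18.1), a log2 difference of -2.87 (SE 0.22, adjusted p = 7.07e-15). Serine gave 38.4 to 118 CPM in EVs (median 66.1) and 139 to 775 CPM in cells (median 232), a log2 difference of -1.92 (SE 0.18, adjusted p = 3.16e-12). The EV and cell ranges of these 4 amino acids did not overlap. Glutamine, histidine, lysine and tyrosine had fewer than 50 counts in each of the 18 EV libraries, so their EV levels carry a large counting error.

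The ranges of the other 6 amino acids overlapped. Histidine, with 0 to 2.92 CPM in EVs (median 0.477) and 1.67 to 9.09 CPM in cells (median 5.06), differed by -2.74 (SE 0.33, adjusted p = 1.07e-09). Threonine, with 13.1 to 53.7 CPM in EVs (median 23.4) and 41.4 to 416 CPM in cells (median 73.9), differed by -1.92 (SE 0.23, adjusted p = 8.47e-10). Asparagine, with 52.5 to 163 CPM in EVs (median 87.5) and 115 to 634 CPM in cells (median 206), differed by -1.36 (SE 0.19, adjusted p = 2.56e-08). These 3 were lower in EVs in 6 of 6 cultures.

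Arginine and the acidic amino acids were closest between EVs and cells. Arginine counts were 149 to 503 CPM in EVs (median 209) and 232 to 1307 CPM in cells (median 384), a log2 difference of -0.70 (SE 0.20, adjusted p = 0.00163), and were lower in 4 of 6 cultures. Without the 3F cell library at 320 mg/dL the difference was -0.17 (adjusted p = 0.369), without pregnancy 4 it was -0.56 (adjusted p = 0.0744), and with median-of-ratios scaling it was -0.11 (adjusted p = 0.631). Aspartate counts were 112 to 564 CPM in EVs (median 183) and 85.6 to 514 CPM in cells (median 160), a log2 difference of 0.48 (SE 0.22, adjusted p = 0.0448), higher in EVs in 4 of 6 cultures. With the culture as a block the aspartate difference was 0.39 (adjusted p = 0.0969), with scaling by library totals 0.16 (adjusted p = 0.415), and without pregnancy 5 it was -0.15 (adjusted p = 0.581). It was 0.693 without the 6 EV libraries of lowest depth (adjusted p = 0.00568), 0.996 without the 3F cell library at 320 mg/dL (adjusted p = 3.31e-05), and at most 1.39, with the libraries thinned to the smallest total. Without the 3F library 16778 features were tested, and Arg-CCG (0.71, adjusted p = 0.00309) and Glu-TTC (0.84, adjusted p = 0.0145) passed the test as higher in EVs. Glutamate counts were 2.03 to 48.4 CPM in EVs (median 12.5) and 8.70 to 57.9 CPM in cells (median 18.3), a log2 difference of -0.13 (SE 0.26, adjusted p = 0.654), lower in EVs in 3 of 6 cultures and higher in the other 3.

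**Figure D1:**
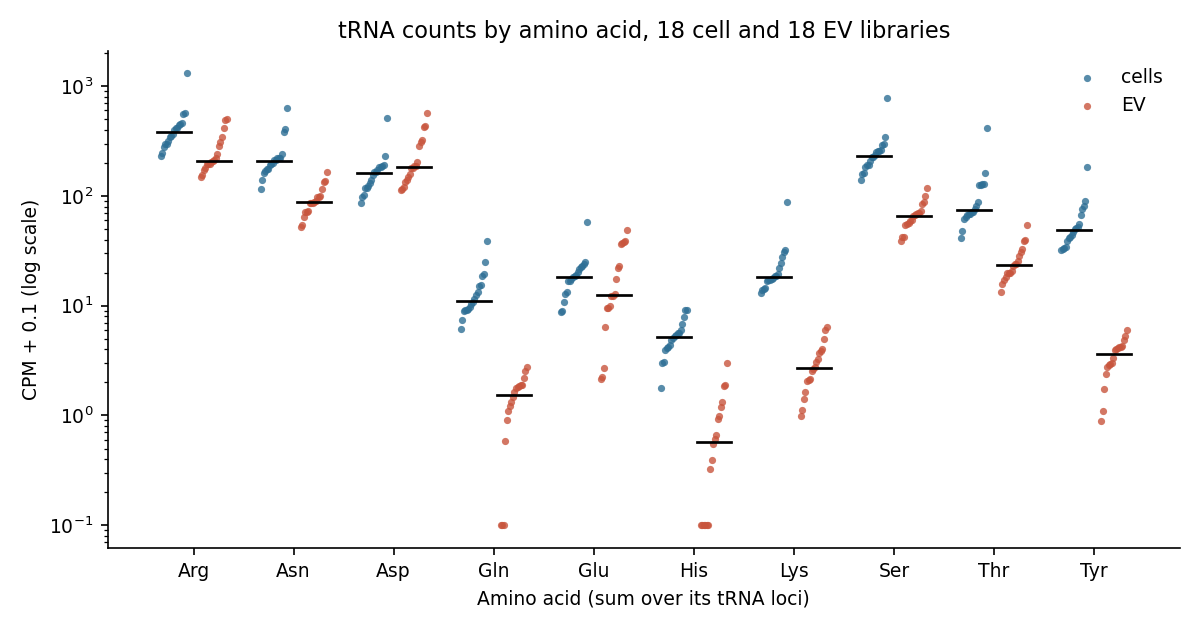
Summed tRNA level (CPM, log axis, 0.1 added) of each amino acid in the 18 cell and the 18 EV libraries. Each point is a library, ordered by level within its group, and each black line is the median. Tyrosine, glutamine, lysine and serine show no overlap between EVs and cells, and aspartate and glutamate overlap over most of their range.

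The levels above depend on how EVs and cells are scaled to each other, but the make-up of the tRNA counts does not. Aspartate took 31.7% ± 5.11 (SD, n = 18) of the members' counts in EVs and 12.9% ± 1.25 in cells, and its lowest EV share (23.4%) was above its highest cell share (14.7%). Arginine took 36.7% ± 3.49 in EVs and 32.6% ± 0.863 in cells. Serine fell short in EVs, with 10.0% ± 2.29 of the counts there and 19.7% ± 1.35 in cells, and threonine likewise, with 3.70% ± 0.587 and 7.50% ± 1.54. Tyrosine took 0.530% ± 0.312 in EVs and 4.38% ± 0.775 in cells. The serine, threonine and tyrosine shares did not overlap between EVs and cells. Glutamate took 2.76% ± 2.42 in EVs, from 0.328% to 9.46%, and 1.52% ± 0.332 in cells. In EVs, arginine, aspartate and asparagine together thus left little room for the other 7 amino acids, of which serine was the most abundant.

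Within an amino acid, the anticodons did not move together. Among the arginine tRNAs, Arg-CCG made up 44.7% ± 7.23 of the arginine counts in EVs and 25.4% ± 2.19 in cells, and Arg-CCT 33.6% ± 4.65 and 24.1% ± 1.37. Arg-TCT went the other way, with 17.1% ± 4.91 in EVs and 39.8% ± 2.04 in cells, as did Arg-ACG, with 1.89% ± 0.588 and 7.31% ± 0.840. None of these 4 shares overlapped between the 18 EV and the 18 cell libraries. Arg-TCG took 2.67% ± 1.51 in EVs and 3.43% ± 0.754 in cells, with overlapping ranges. By level, Arg-ACG differed by -2.64 (SE 0.19) and Arg-TCT by -2.03 (SE 0.20) on the log2 scale, whereas Arg-CCG (0.22, SE 0.22, adjusted p = 0.35) and Arg-CCT (-0.27, SE 0.18, adjusted p = 0.165) did not pass the test.

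Serine split in the same manner. Ser-CGA made up 58.3% ± 5.39 of the serine counts in EVs and 41.8% ± 3.02 in cells, and Ser-TGA 23.5% ± 4.82 and 12.6% ± 3.21. Ser-GCT made up 16.4% ± 3.06 in EVs and 38.5% ± 3.97 in cells, and Ser-AGA 1.77% ± 1.77 and 7.11% ± 1.77. The Ser-CGA and Ser-GCT shares did not overlap. By level, each of the 4 was lower in EVs, from -0.98 for Ser-TGA (SE 0.16) to -3.94 for Ser-AGA (SE 0.30), with -1.43 for Ser-CGA (SE 0.17) and -3.11 for Ser-GCT (SE 0.21). Ser-GGA, with 1 locus and 4 counts over the EV libraries, was not tested. In 2 EV libraries the serine counts were under 50.

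**Figure D2:**
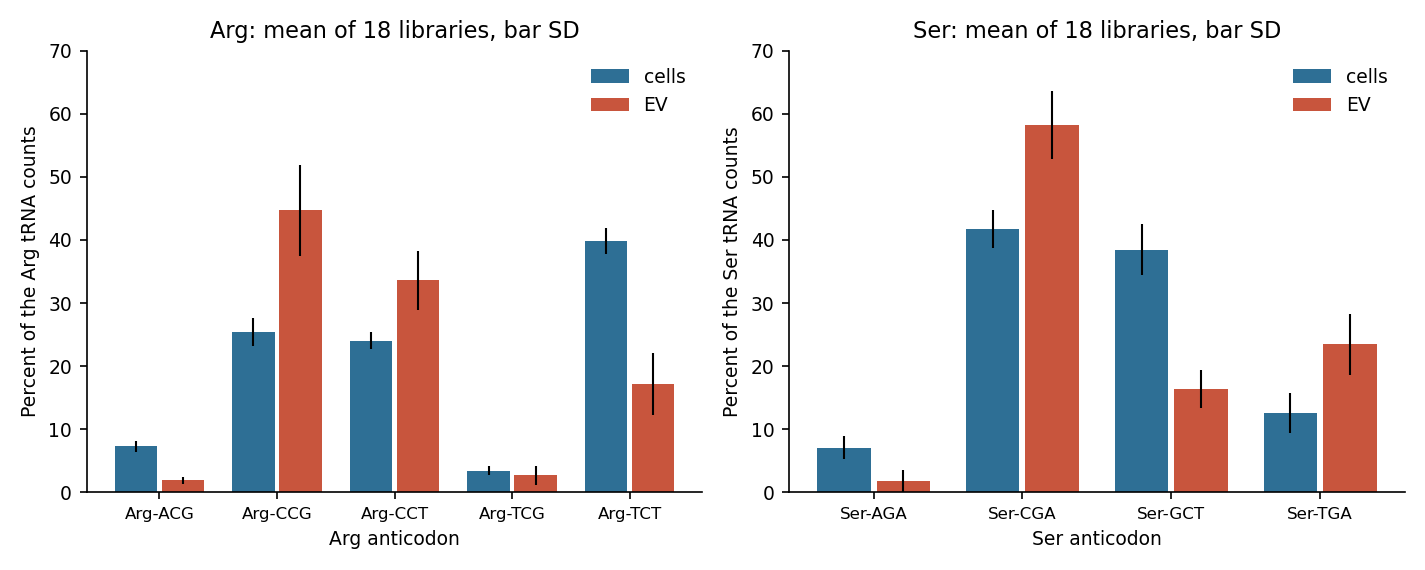
Percent of the arginine (left) and serine (right) tRNA counts given by each anticodon, as the mean over 18 cell and 18 EV libraries with the SD as error bar; Ser-GGA, under 1%, is left out. Arg-CCG and Arg-CCT, and Ser-CGA and Ser-TGA, take a larger share in EVs, and Arg-TCT, Arg-ACG, Ser-GCT and Ser-AGA a smaller one.

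The other amino acids with more than one anticodon were lower in EVs for each anticodon, apart from glutamate. The 3 threonine anticodons differed by -1.73 (Thr-AGT, SE 0.26), -1.97 (Thr-CGT, SE 0.24) and -2.22 (Thr-TGT, SE 0.18). Gln-CTG differed by -3.50 (SE 0.29) and Gln-TTG by -2.53 (SE 0.32). Lys-CTT differed by -2.84 (SE 0.20) and Lys-TTT by -2.99 (SE 0.58). Glu-CTC (-0.30, SE 0.25, adjusted p = 0.265) and Glu-TTC (0.32, SE 0.29, adjusted p = 0.307) did not pass the test. Of the 23 anticodons, 10 had EV and cell ranges that did not overlap, and in each of them the EV libraries were lower. Of all features, 12.1% had every EV library below every cell library, and 2.5% had every EV library above.

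**Figure D3:**
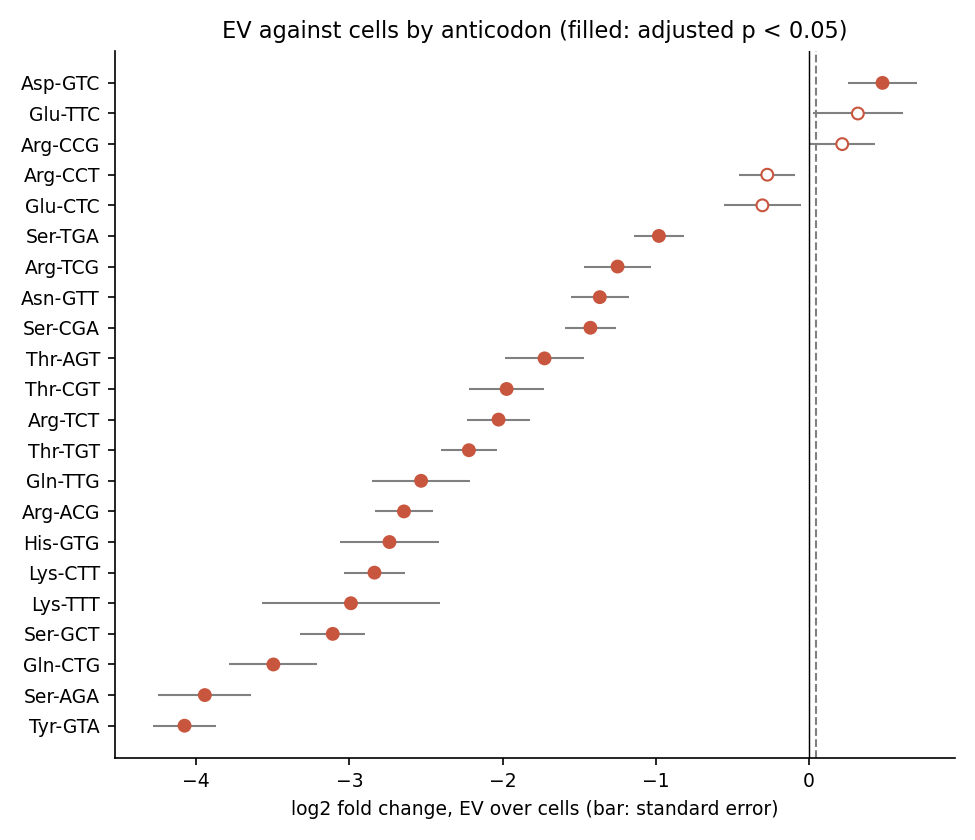
Log2 fold change of EVs over cells for the sum of each anticodon (points, with the SE as error bar), filled where the adjusted p was under 0.05. The dashed line is the median of all features tested, at 0.05; only Asp-GTC is filled to its right, and Tyr-GTA lies farthest to the left at -4.08.

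Single loci repeated this pattern. Of the 171 members, 98 passed the filter on low counts, of which 86 were lower in EVs, 2 were higher and 10 did not pass the test. Of all 21333 features tested, 82.6% were called in this comparison, 40.7% as lower and 41.9% as higher in EVs. A member could pass the filter through its cell counts alone, and such a member could only be lower in EVs, so these counts describe the members that were tested. With no filter, 124 were tested, 96 were lower and 2 were higher, beside 9377 lower and 12652 higher of all 31069 features. The median log2 fold change of the 98 was -2.58, beside 0.05 for all features. Without the 3F cell library at 320 mg/dL, 74 members were tested, 63 were lower and 5 were higher, and the median was -2.01. Of all 16778 features in that fit, 7056 were lower and 6861 were higher. The nonpolar tRNA genes had a median of -2.70 over the 90 tested and the cysteine tRNA genes -3.40 over the 5 tested, so the lower level in EVs was not particular to polar and charged amino acids. In 36 of the 124 loci with counts, each EV library lay below each cell library, and in no member did each EV library lie above, beside 12.1% and 2.5% of all features.

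The 2 members that were higher in EVs, which are named after their values were seen, were n-TDgtc16 and n-TEttc7. n-TDgtc16 had 110 to 548 CPM in EVs (median 175) and 74.5 to 436 CPM in cells (median 131), a log2 difference of 0.71 (SE 0.22, adjusted p = 0.00388). Its EV and cell ranges overlapped over most of their length, 4 of 6 cultures had the higher value in EVs, and without pregnancy 5 the difference was 0.07 (adjusted p = 0.797). Without the 3F cell library at 320 mg/dL it was 1.24. With the doses of a culture summed and the culture as a block it was 0.88 (adjusted p = 0.0206). n-TEttc7 had 0 to 18.5 CPM in EVs (median 3.36) and 1.43 to 13.5 CPM in cells (median 2.93), a log2 difference of 0.71 (SE 0.32, adjusted p = 0.0358). It was higher in 3 of 6 cultures, and with the culture as a block the difference was 0.57 (adjusted p = 0.0911). With the doses of a culture also summed it was 0.64 (adjusted p = 0.260). Scaled by library totals it was 0.41 (adjusted p = 0.200), and without pregnancy 4 or 5 it was 0.70 (adjusted p = 0.141) or 0.037 (adjusted p = 0.938). Without the 3F cell library at 320 mg/dL it was 1.26 (adjusted p = 0.00101).

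Most aspartate counts were assigned to one locus. Of the 14 Asp-GTC genes that the scan found, 13 share a sequence and only n-TDgtc16 has its own. Its reads can thus be assigned where those of the others cannot be told apart, and the effect on its share was not tested. n-TDgtc16 held 96.7% ± 1.15 (SD, n = 18) of the Asp-GTC counts in EVs and 82.2% ± 2.58 in cells, and these shares did not overlap (94.0% to 98.3% and 78.7% to 88.2%). Other Asp-GTC loci were lower in EVs. n-TDgtc14 had 0 to 1.31 CPM in EVs (median 0.248) and 5.05 to 47.6 CPM in cells (median 12.9), a log2 difference of -5.54 (SE 0.33, adjusted p = 6.57e-18). n-TDgtc5 differed by -3.87 (SE 0.40) and n-TDgtc4 by -2.10 (SE 0.35). n-TDgtc9, of the sequence printed above, differed by -0.25 (SE 0.24, adjusted p = 0.332).

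The share of the leading locus of an anticodon was larger in EVs in some cases and smaller in others. n-TRcct1 held 75.0% ± 5.79 of the Arg-CCT counts in EVs and 54.1% ± 2.74 in cells, without overlap, and n-TRccg1 held 86.6% ± 6.04 of Arg-CCG in EVs and 74.9% ± 2.44 in cells. n-TSgct7 held 75.3% ± 12.2 of Ser-GCT in EVs and 56.8% ± 4.53 in cells. n-TRtct2 (79.1% ± 6.36 and 83.5% ± 1.98), n-TScga2 (57.5% ± 9.08 and 56.1% ± 6.66) and n-TStga3 (99.0% ± 1.45 and 97.9% ± 0.499) held about the same share in both. n-TYgta8 held 36.3% ± 8.74 of Tyr-GTA in cells and 18.6% ± 22.7 in EVs, where 12 of 18 libraries had a count for it. n-TRacg6 held 5.28% ± 7.27 of Arg-ACG in EVs and 29.8% ± 8.36 in cells, and n-TTcgt2 held 42.5% ± 19.1 of Thr-CGT in EVs and 57.7% ± 4.26 in cells. n-TKttt23 held 31.7% ± 24.0 of Lys-TTT in the 8 EV libraries with a count for that anticodon and 77.7% ± 13.9 in cells.

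The leading loci of the 10 amino acids in control cells ranged from near parity to far below it. n-TRtct2 had 18.8 to 59.9 CPM in EVs (median 32.7) and 75.7 to 503 CPM in cells (median 124), a log2 difference of -2.11 (SE 0.20). n-TNgtt9 had 47.3 to 150 CPM in EVs (median 79.5) and 101 to 567 CPM in cells (median 181), a log2 difference of -1.32 (SE 0.19). n-TScga2 had 13.2 to 32.9 CPM in EVs (median 21.4) and 31.9 to 163 CPM in cells (median 51.5), a log2 difference of -1.43 (SE 0.17). Only n-TRtct2 had EV libraries that were all below the cell libraries among these 3. n-TTagt6 had 2.26 to 17.8 CPM in EVs (median 6.10) and 7.06 to 122 CPM in cells (median 16.3), a log2 difference of -1.42 (SE 0.26, adjusted p = 5.51e-06), which was -0.79 without the 3F cell library at 320 mg/dL. n-TQctg10 (-2.59, SE 0.34), n-THgtg8 (-2.68, SE 0.33) and n-TKctt30 (-2.45, SE 0.26) were also lower, with EV medians of 0.619, 0.477 and 1.06 CPM. n-TEctc9, with 0 to 20.6 CPM in EVs (median 4.61) and 2.44 to 16.3 CPM in cells (median 5.30), differed by 0.29 (SE 0.28, adjusted p = 0.35), and by 0.78 without the 3F library (adjusted p = 0.0230). n-TYgta8 had 0 to 4.12 CPM in EVs (median 0.302) and 8.23 to 101 CPM in cells (median 14.7), a log2 difference of -5.20 (SE 0.33, adjusted p = 5.33e-17).

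Some loci were at or near 0 in EVs. The 5 with the lowest fitted change among those lower in all 6 cultures were n-TYgta3, n-TTtgt2, n-TYgta4, n-TKctt15 and n-TSaga6. n-TYgta3 had no EV count and 0.526 to 3.80 CPM in cells (median 1.45), which is at least 25.5-fold lower in EVs against a floor of 3 counts over the EV group. By the same floor n-TYgta4 was at least 9.23-fold lower, n-TKctt15 at least 8.49-fold and n-TSaga6 at least 6.46-fold. n-TTtgt2 had 1 count over the EV libraries and 1.60 to 6.88 CPM in cells, where the mean was 194 times its pooled EV level (exact Poisson 95% interval 34.9 to 7672, for counting error only). n-TSaga7, with 2 EV counts, had a cell mean 72.1 times its EV level (19.95 to 595).

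**Figure D4:**
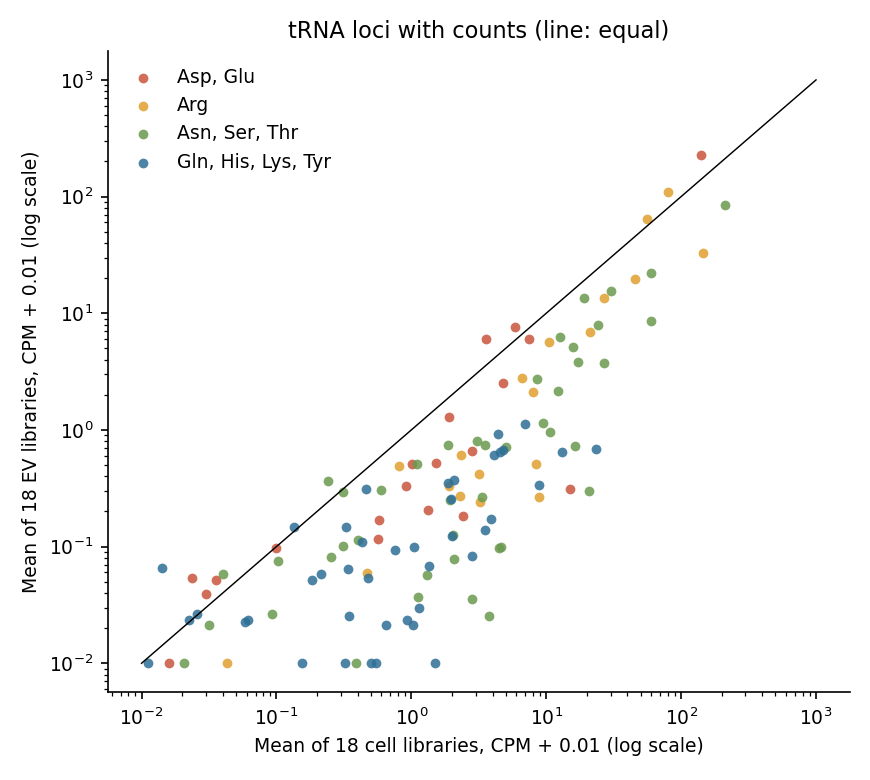
Mean CPM (0.01 added, log axes) of each of the 124 loci with counts in the 18 EV libraries against the 18 cell libraries, coloured by amino acid group. The line marks equal levels; n-TDgtc16, at a mean of 226 CPM in EVs and 140 CPM in cells, lies above it, and most loci lie below it.

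Copies of one sequence did not receive equal counts. On GRCm39, 93 of the 171 members could be placed, 46 of them with a sequence found once in the genome and 47 with an identical copy elsewhere. The 46 held 618764 of the members' counts in cells and 31176 in EVs, the 47 held 246827 and 6216, and the 78 members that were not placed held 58333 and 829. The placed members included 14 sets of identical sequence with 42 members, and 13 of these sets had counts. In 12 of the 13 the leading locus held more than 50% of the set's cell counts, with a median of 69.7% and a range of 44.6% to 100%. The leading locus was picked by these same counts, and in a set of 2 members it must hold at least 50%. n-TNgtt9 held 97.2% of the cell counts of 5 identical loci, with 152024 counts, while n-TNgtt8 had 3032, n-TNgtt14 had 1302 and n-TNgtt6 and n-TNgtt7 had 0. These 3 identical loci with counts also differed from cells to EVs by unequal amounts, by -1.32 for n-TNgtt9, -3.03 for n-TNgtt14 and -5.36 for n-TNgtt8. Identical glutamate loci behaved alike in this respect, with 0.29 for n-TEctc9, -0.84 for n-TEctc13 and -0.97 for n-TEctc11, and 0.71 for n-TEttc7 against -1.36 for n-TEttc6. A read that lies within the shared sequence cannot tell these loci apart, so a value for a single copy is uncertain. A sum over an anticodon does not depend on how such reads are divided among identical copies. It would still miss reads left out for mapping to several places, and the treatment of those reads is not given.

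Copy number, place and introns were compared with the counts. Of the 46 members of single sequence, 33 had counts and 13 had none, among them n-TRtct4, n-TRtct5, n-TRccg3 and n-TYgta9. Of the tested members, the median log2 fold change was -1.54 over 32 with a single sequence and -3.45 over 33 with an identical copy. It was -2.10 over 37 loci between genes, -2.18 over 13 in introns of other genes and -2.80 over 15 in exons. Loci in an exon or intron of another gene can share reads with that transcript. Each of the 10 Tyr-GTA genes that the scan found has an intron and a sequence of its own, and the 8 tyrosine loci with counts were lower in EVs, from -2.33 for n-TYgta5 (SE 0.33) to the 2 loci with no EV count. Of the placed members, 10 have an intron and 8 of these had counts, with log2 fold changes of -5.20 to -1.55.

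The second comparison asked whether ethanol changed these tRNAs, with the culture as a block. No member passed the test at either dose in EVs or in cells by edgeR. DESeq2 called none either, but gave an adjusted p to only 4 and 7 members in EVs and to 124 and 89 in cells. Of all features with an adjusted p in EVs, DESeq2 called 12 of 1474 at 120 mg/dL and 267 of 4918 at 320 mg/dL. In cells at 120 mg/dL it called 4 of 30506. The percentages that follow are from edgeR. In EVs, 0 of 26 members tested were called at 120 mg/dL (0.00758% of all features tested) and 0 of 26 at 320 mg/dL (0.0758%), and in cells 0 of 105 at 120 mg/dL (0%) and 0 of 105 at 320 mg/dL (0%). The number with an unadjusted p under 0.05 was 0 in EVs at either dose, 0 in cells at 120 mg/dL and 1 in cells at 320 mg/dL by edgeR, and 1, 3, 0 and 5 by DESeq2. In EVs, where the glutamine and histidine sums were too low to be tested, the sums of the other 8 amino acids differed from control by -0.02 to 0.71 at 120 mg/dL and by -0.05 to 0.76 at 320 mg/dL. In cells the 10 sums differed by 0.02 to 0.15 at 120 mg/dL and by 0.06 to 0.44 at 320 mg/dL.

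Culture values show how far the 6 cultures disagreed. In cells, the sum of all members at 0, 120 and 320 mg/dL was 777, 1869 and 4023 CPM in culture 3F and 1222, 1059 and 711 CPM in culture 5M, so 320 mg/dL gave the highest value in one culture and the lowest in the other. The other cultures were 3M (1647, 861 and 1052 CPM), 4F (1410, 1367 and 1331 CPM), 4M (898, 1152 and 1319 CPM) and 5F (927, 1235 and 937 CPM), which lay between 5M and 3F at 320 mg/dL. The median log2 fold change of the 105 members in cells at 320 mg/dL was 0.27, and it was -0.05 without the 3F library and -0.09 without pregnancy 3. In EVs the sums were 454, 446 and 599 CPM in 3F, 657, 488 and 486 CPM in 3M, 480, 471 and 511 CPM in 4F, 776, 569 and 565 CPM in 4M, 907, 1118 and 862 CPM in 5F, and 673, 1270 and 1380 CPM in 5M. No dose stood apart from the others in these values.

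Glutamate in EVs had the lowest adjusted p of the amino acid sums at 320 mg/dL. Its EV level at 0, 120 and 320 mg/dL was 6.26, 12.2 and 12.8 CPM in 3F, 2.15, 2.61 and 2.03 CPM in 3M, 37.4, 17.2 and 48.4 CPM in 4F, 9.50, 12.2 and 9.75 CPM in 4M, 23.1, 37.6 and 38.4 CPM in 5F, and 9.43, 22.0 and 36.2 CPM in 5M. At 320 mg/dL it was above control in 5 of 6 cultures, by 0.76 on the log2 scale (SE 0.27), with an adjusted p of 0.298. The Glu-CTC sum differed by 0.84 (SE 0.25, adjusted p = 0.203), and it passed the test with no filter (adjusted p = 0.0164) and without pregnancy 4 (1.24, adjusted p = 0.0244). It did not pass without pregnancy 3 (0.81, adjusted p = 0.599), without pregnancy 5 (0.50, adjusted p = 0.991) or with no block (0.79), and the glutamate sum was 0.35 without pregnancy 5. The 2 members with the lowest adjusted p there were n-TEctc9 (0.78, SE 0.37, adjusted p = 0.47) and n-TEctc11 (0.82, SE 0.41, adjusted p = 0.479). n-TTagt6, which the study names for a sex-related module in cells and not for ethanol, differed in EVs by 0.35 at 120 mg/dL. At 320 mg/dL n-TTagt6 differed by 0.53 (SE 0.28, adjusted p = 0.514). The lowest adjusted p in cells at 320 mg/dL belonged to the identical lysine loci n-TKctt18 (0.72, SE 0.30, adjusted p = 0.542) and n-TKctt17 (0.57, SE 0.28, adjusted p = 0.618). At 120 mg/dL the corresponding loci were n-TRcct2 (-0.26) and n-TTagt6 in EVs. In cells at 120 mg/dL the lowest adjusted p was shared by many members, of which n-TQctg8 (1.01) and n-TKctt11 (0.45) had the lowest unadjusted p.

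**Figure D5:**
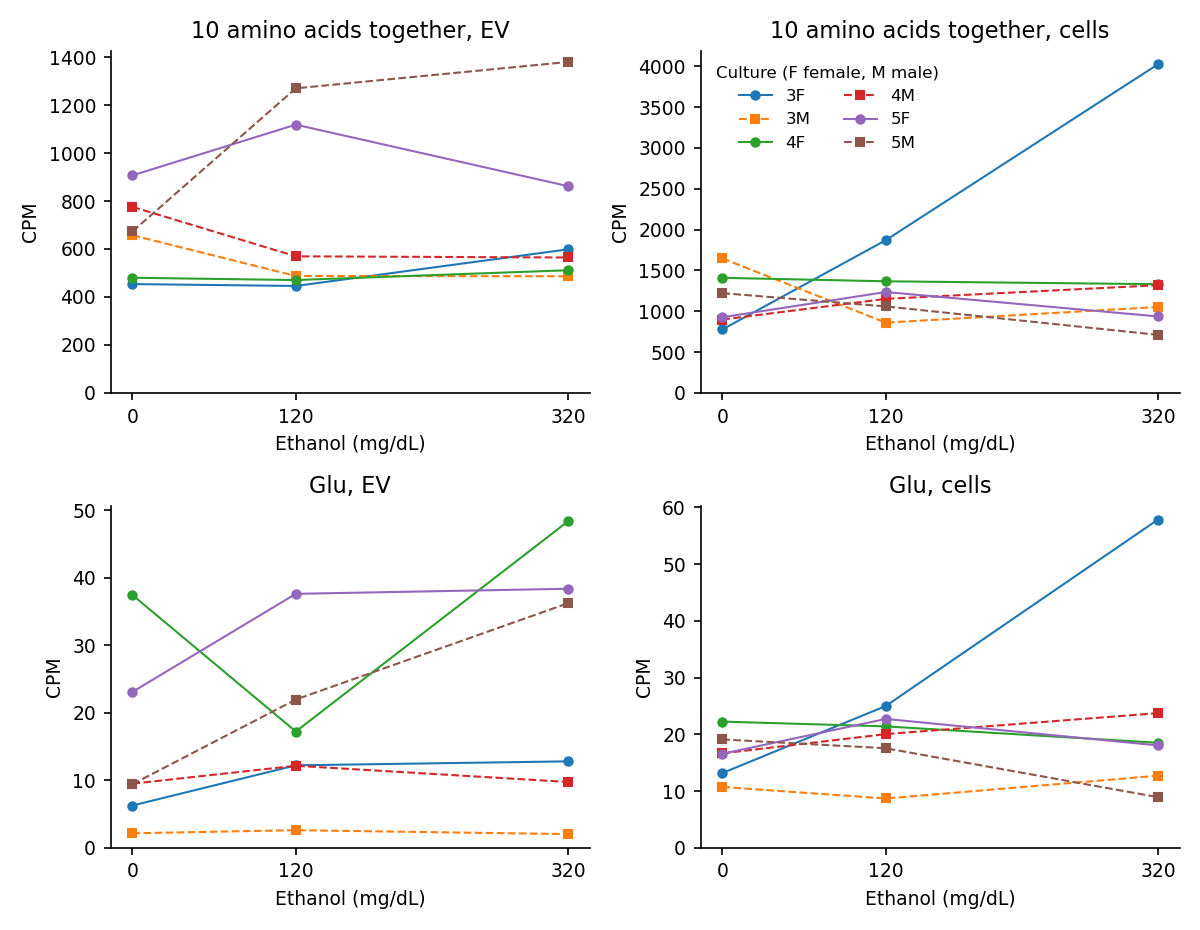
CPM against ethanol dose (mg/dL) for the sum of the 10 amino acids (top) and for glutamate (bottom) in EVs (left) and cells (right), 1 line per culture, F for female and M for male. The 3F cell library at 320 mg/dL stands at 4023 CPM in the top right panel, and glutamate in EVs is lowest in 3M at every dose.

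The anticodon make-up in EVs was read at 0, 120 and 320 mg/dL as means over 6 libraries, with no test. Arg-CCG took 44.7%, 43.8% and 45.6% of the arginine counts, Thr-AGT 54.9%, 57.8% and 64.6% of the threonine counts, and Glu-CTC 63.1%, 63.1% and 74.9% of the glutamate counts. The spread over the 18 EV libraries was 7.23 percentage points (SD) for Arg-CCG, 10.7 for Thr-AGT and 16.2 for Glu-CTC. Glutamate had fewer than 50 counts in 11 of the 18 EV libraries and threonine in 6, so their shares carry a large counting error. Glutamine and lysine had fewer than 50 counts in every EV library, and their anticodon shares by dose are not given. Whether the EV to cell ratio shifted with ethanol was tested as an interaction with the location by culture block. None of the 98 members was called at 120 mg/dL (0.00938% of all features) or at 320 mg/dL (0%), and 0 and 1 had an unadjusted p under 0.05. At 320 mg/dL the lowest adjusted p were those of n-TTtgt1 (-2.31, SE 0.98, adjusted p = 0.689) and n-TEctc6 (1.37, adjusted p = 0.763). At 120 mg/dL they were those of n-TDgtc15 (4.94) and n-TDgtc13 (5.07), which had 0 to 3 and 0 to 2 counts in an EV library and adjusted p of 1.

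The third comparison set female against male cultures, with 3 of each sex and 3 libraries per culture, which the test takes as independent. In cells, 6 of 105 members were higher in females and none was lower, where 5.66% of all features were called and 3.17% were higher in females. The 6 were n-TTagt7 (1.41, SE 0.39, adjusted p = 0.0447), n-TTagt6 (1.36, SE 0.36, adjusted p = 0.0356), n-TRtct3 (1.32, SE 0.33, adjusted p = 0.0284), n-TNgtt12 (1.27, SE 0.34, adjusted p = 0.0384), n-TRcct3 (1.24, SE 0.32, adjusted p = 0.0303) and n-TQctg1 (1.12, SE 0.29, adjusted p = 0.0306). Each was higher in females in 3 of 3 pregnancies. The share of members called, 5.71%, was near that of all features. The rule on the largest changes names the first 3, and the others are named because the count is small.

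n-TTagt6 in cells ran from 14.5 to 122 CPM in the 9 female libraries and from 7.06 to 19.2 CPM in the 9 male libraries. In pregnancy 4 the females had 30.3, 29.2 and 28.3 CPM at the 3 doses and the males 10.7, 15.5 and 12.3 CPM, and in pregnancy 5 the females had 14.5, 24.2 and 17.2 CPM and the males 12.8, 12.8 and 7.06 CPM. In pregnancy 3 the female value at 0 mg/dL, 17.99 CPM, was below the male value of 19.2 CPM, and at 320 mg/dL the values were 122 and 12.5 CPM. n-TRtct3 ran from 5.91 to 31.97 CPM in females and from 2.19 to 6.87 CPM in males. With the pregnancy as a block 13 members were called, all higher in females, and without pregnancy 4 or pregnancy 5 the numbers were 1 and 2. The shares over all features in these fits are not given here, so the counts describe the members only. With the doses of a culture summed, 3 females against 3 males, none was called, and n-TTagt6 had a log2 difference of 1.20 (adjusted p = 0.604). The median over the 105 members was 0.49, and it was 0.25, with 5 members called, without the 3F cell library at 320 mg/dL, where n-TQctg1 lost its call (0.87, adjusted p = 0.0632). In that fit 657 of 19263 features were called, 432 of them higher in females. Marker sums of other cell types in cells were read by sex without a test, and their ranges overlapped. Astrocyte markers were at 17.3 to 94.1 CPM in females and 52.2 to 265 CPM in males over 3 listed genes, of which Aqp4 was at 0. Oligodendrocyte markers were at 87.7 to 177 CPM in females and 44.6 to 144 CPM in males over 4. Their part in the tRNA differences was not tested.

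In EVs none of 26 members was called between sexes, where 12.3% of all features were, and 3 had an unadjusted p under 0.05. These 3, named after their values were seen, were the glutamate loci n-TEttc7 (1.59, SE 0.63, adjusted p = 0.0914), n-TEctc9 (1.45, SE 0.56, adjusted p = 0.0889) and n-TEctc11 (1.26, SE 0.47, adjusted p = 0.0799). The glutamate sum was higher in females in 3 of 3 pregnancies, with a log2 difference of 1.39 (SE 0.50, adjusted p = 0.0690). With the pregnancy as a block it was 1.62 (SE 0.29, adjusted p = 0.00147), where the 3 doses of a culture count as separate libraries. With the doses of a culture summed it was 1.496 (adjusted p = 0.350), and without pregnancy 4 it was 0.89 (adjusted p = 0.424). The fit with the pregnancy as a block also called n-TEctc9, n-TEctc11 and n-TEttc7 as higher and n-TScga3 as lower (-0.63, adjusted p = 0.0204) in females. Marker sums in EVs were read by sex without a test, and their ranges overlapped. Endothelial markers ran from 2.72 to 8.61 CPM in females and from 1.23 to 3.92 CPM in males over 3 listed genes, of which Cldn5 was at 0 in EVs. Astrocyte markers went the other way, with medians of 19.9 CPM in females and 47.7 CPM in males. Their part in the glutamate difference was not tested. By DESeq2 2 of 56 members were called in EVs, and with no filter 5 of 114. The shares over all features in these 2 fits are not given here.

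The sex difference was also compared between EVs and cells, as an interaction with the pair of libraries as a block. None of the 98 members was called, where 1.26% of all features were, and 16 had an unadjusted p under 0.05. The 2 members with the lowest adjusted p were n-THgtg8 (-2.17, adjusted p = 0.0939) and n-TNgtt8 (-6.31, adjusted p = 0.113), both of which had few EV counts. The histidine sum had 0, 0 and 0 CPM in the 3 EV libraries of 4F and 2.92, 1.77 and 1.08 CPM in those of 4M, and its interaction was -2.39 (adjusted p = 0.0713). With no filter n-THgtg8, n-TNgtt8 and n-TRtct1 were called. The histidine sum was called with no filter (-2.40, adjusted p = 0.0198) and without pregnancy 3 (-3.61, adjusted p = 0.0414). In 7 of 9 alternatives the histidine sum stayed without a call.

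The messenger RNAs of the proteins that make, load and modify these tRNAs were read from fixed lists, whose counts stand beside the 40.7% of all features that were lower in EVs, the 41.9% that were higher and the median of 0.05. All 14 genes listed for the polar and charged aminoacyl-tRNA synthetases and their scaffold proteins were lower in EVs (median -1.75), with Eef1e1, a scaffold protein of the synthetase complex, at -2.92 (SE 0.21) and Dars, the aspartyl-tRNA synthetase, at -2.65 (SE 0.17). Dars had 5.48 to 33.7 CPM in EVs and 101 to 169 CPM in cells. Of the genes for end processing, splicing and export, 22 of 23 tested were lower (median -1.56), with Trnt1, which adds the CCA end, at -3.11 (SE 0.18) and Rpp40, a subunit of RNase P, at -2.46 (SE 0.33). Of the RNA polymerase III machinery, 18 of 23 were lower and 2 were higher (median -0.89). The higher 2 were Gtf3c4 (1.51, SE 0.16) and Brf1 (0.63, SE 0.11), and the lowest were Polr3d (-2.53, SE 0.15) and Gtf3c3 (-2.40, SE 0.13). Of the modification enzymes, 40 of 44 were lower and 2 were higher (median -1.19), with Wdr4, which works with the methyltransferase Mettl1, at 1.89 (SE 0.13), Ctu1, of wobble uridine thiolation, at 1.29 (SE 0.21), Trit1 at -2.44 (SE 0.12) and Yrdc at -2.16 (SE 0.14). Of the cleavage list, 2 of 8 genes could be tested, the RNase inhibitor gene Rnh1 (-0.97, SE 0.14) and Dicer1 (-0.85, SE 0.12). None of the genes of these 5 lists was called for ethanol in EVs or cells.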

How the data were processed

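Total RNA of EV pellets and of the matched cells was depleted of ribosomal RNA and made into stranded libraries for paired-end sequencing. The authors trimmed and deduplicated the reads, mapped them to mm39 with STAR, and used HTSeq to assign them to genes. What the authors deposited are whole counts for each feature and library, with no normalization, and these were used unaltered. The annotation, the strand setting and the treatment of reads that map to several places are not given in the sources used here, and each can move counts between tRNA copies and overlapping transcripts. EV libraries had between 959217 and 5509952 counts, cell libraries between 26566061 and 55282322, and intervals and floors cover counting error only.

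edgeR 4.0.16 was run in R 4.3.3. Its filterByExpr, at a minimum count of 10 and a minimum total of 15, chose the features to test, TMM set the scaling, and p-values of the quasi-likelihood F test were adjusted after Benjamini and Hochberg over all features, a call being an adjusted p under 0.05. Sums per amino acid and per anticodon were added as rows, with scaling taken from the features alone. The model for EVs against cells had sex and dose as terms, that for doses had the culture as a block, that for sexes had dose as a term, and ratios were tested as interactions. DESeq2 1.42.0 and limma 3.58.1 were used for alternatives and checks, and Python 3.11.15 with matplotlib 3.10.9 for figures. The fit was tested on simulated data.

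Groups came from the labels, and the pregnancy number pairs samples because cultures with 1 number come from 1 pregnancy. The median correlation of their deviations from the group means was 0.559 and 0.480 between ethanol and control cells at 120 and 320 mg/dL. In EVs it was 0.135 and 0.171. Between sexes it was 0.277 in cells and 0.0708 in EVs, and between an EV library and its cells it was 0.0501.

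tRNA genes were searched for in GRCm39, the build of mm39, by their cloverleaf. A gene took a member's name where exactly 1 of its anticodon and length lay between the same protein-coding neighbours in RefSeq and GENCODE. In a further pass it was enough to be the only gene of that anticodon and length on its chromosome, with a shared neighbour. The RefSeq table, of another build, served for neighbours only. The sequence of 1 locus is not reported here.

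The members, gene lists and tests were chosen with earlier results of these data known. Named were each amino acid and anticodon sum, the leading locus of each amino acid in control cells, the 5 loci with the largest change between EVs and cells that went one way in all 6 cultures, in other comparisons the 3 largest called in each direction or, with none called, the 2 lowest adjusted p, the locus n-TTagt6, and 2 genes in each direction per list. The neuron, oligodendrocyte and astrocyte marker lists, with 148 to 321, 29.5 to 102 and 11.6 to 129.5 CPM in EVs and 517 to 1071, 44.6 to 177 and 17.3 to 265 CPM in cells, were also read. The level of Y-linked genes was on the labelled side in every library.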

Additional observations from a re-analysis of the deposited data

Results flagged for a closer look

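In each group of 6 libraries, the library farthest from the rest was compared with the group's range by Dixon's criterion (0.625 for 6 values). Of 66 groups 16 passed it, where chance flags about 1 in 20.

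Of these 16, 10 were the same library, the female culture of pregnancy 3 at 320 mg/dL in cells. The sum of all members was 4023 CPM there and 711 to 1331 CPM in the other 5. By amino acid it held 1307 CPM for arginine (others 232 to 438), 634 for asparagine (115 to 239), 514 for aspartate (97.1 to 191), 38.9 for glutamine (6.09 to 15.4), 57.9 for glutamate (8.93 to 23.7), 88.7 for lysine (14.1 to 24.2), 775 for serine (158 to 293), 416 for threonine (41.4 to 127) and 184 for tyrosine (32.1 to 66.6).

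Asparagine also stood apart in the control cells of 3M, at 408 CPM beside 140 to 213, in the 3F cells at 120 mg/dL, at 385 CPM beside 176 to 223, and in the 5M EVs at 120 mg/dL, at 163 CPM beside 71.3 to 96.7. Serine in the same 5M EV library was 118 CPM beside 42.3 to 66.2. Lysine in the control cells of 4F was 30.5 CPM beside 13.8 to 18.7. Histidine in the 4M EVs at 120 mg/dL was 1.77 CPM beside 0 to 0.297, from 7 counts.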

How the results depend on the processing

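Of 844 fold changes recomputed under the alternatives, 733 kept their direction and their side of the threshold, 50 lost the call, 37 gained it and 24 changed sign. The 152 recomputed shares each stayed within 1 SD. The number of members called between EVs and cells was 88, and it was 26 of 36 tested when each library was thinned to the smallest total, which tests fewer loci. In the thinned fit 8127 of 10685 features were called. It ranged from 83 to 90 without 1 pregnancy, and was 88 with the replicate block. The split differed between settings. Of 98 members tested by edgeR, TMM gave 2 higher and 86 lower, median-of-ratios factors 6 and 79, and library totals 1 and 91. DESeq2, with median-of-ratios factors but without that filter on low counts, gave 18 and 75 of 124 members. Over all features the same 4 settings gave 8940 higher and 8680 lower, 11236 and 6350, 7769 and 9716, and 16946 and 6310. The median of all features was 0.05, 0.61, -0.26 and 1.73 in that order.

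Between EVs and cells, Arg-CCT was 0.33 with median-of-ratios factors and 0.33 by DESeq2, 0.077 in control libraries alone, 0.73 thinned and 0.27 without the 3F cell library at 320 mg/dL, an alternative chosen after seeing the data. Under median-of-ratios factors, DESeq2, thinning and leaving out that library, glutamate was 0.51, 0.49, 0.84 and 0.39 and Glu-CTC 0.32, 0.31, 0.62 and 0.20. Arginine was 0.22 when thinned. With library totals, Arg-CCG was -0.14 and n-TEctc9 -0.019. Leaving out 1 pregnancy at a time gave -0.69 to 0.15 for glutamate, with the sign changed without pregnancy 3. It gave -0.15 to 0.68 for aspartate and Asp-GTC, -0.58 to 0.50 for Arg-CCG, -0.30 to 0.65 for Glu-TTC and -0.34 to 0.58 for n-TEctc9, with the sign changed without pregnancy 5. For ethanol at 120 mg/dL it gave -0.17 to 0.51 for n-TTagt6 in EVs, negative without pregnancy 5, and -0.21 to 1.79 for n-TQctg8 in cells, negative without pregnancy 3. Where no clause above gives it, the cause was not tested.

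Between sexes in EVs, 0 members were called, and 5 with no filter, 2 by DESeq2, 4 with the replicate block and 0 to 3 without 1 pregnancy. Between sexes in cells, 6 were called, and 14 by DESeq2, 13 with the replicate block, 0 with the doses summed, and 1 to 8 without 1 pregnancy. For the ratio by sex, 0 were called, and 3 with no filter. Shares over all features are not set beside these alternative counts for sex, which therefore describe the members only. In the other comparisons leaving the block in or out changed no count of members called. The alternative on loci of unshared sequence was not run, since only 54.4% of the members could be placed.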
